A study of Saccharomyces cerevisiae with 16 samples.

Results

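The transcript response of budding yeast without the transcription factor Pdr1 was taken from the 4 arrays that followed a PDR1 deletion strain at 2, 4, 10 and 20 min after addition of benomyl, of 16 arrays in all. Of the 6321 genes and unnamed probes spotted on the arrays, 4923 had a value on at least 3 of these 4 arrays and form the set described here. Each spotted array read 2 channels: RNA of drug-treated cells of a strain and RNA of its untreated cells. The other arrays held a strain deleted for YAP1 with benomyl, at 30 s and at 2, 4, 10 and 20 min, and the wild type (WT) with benomyl, at the same times and at 40 min. The PDR1 deletion also had an array at 30 s. Each strain and time was 1 array, so the times serve as repeats. The p-values use the spread between the single arrays of 3 strains that the strain and time terms leave. That spread may be technical, and it also holds real differences between the strains in their time course. The benomyl dose, the strain background, the number of deletion clones and any pooling of cultures are not given in the sources used here.

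Benomyl binds tubulin and depolymerises microtubules, and cells exposed to it also switch on genes against drugs and oxidants. Pdr1, with its relative Pdr3, binds the promoters of membrane pumps such as PDR5 and SNQ2 and is the main activator of the pleiotropic drug resistance network in yeast. Yap1, a leucine zipper factor that gathers in the nucleus when its cysteines are oxidised, activates the exporters FLR1 and ATR1 and genes of the thioredoxin and glutathione systems.

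Values are log2 ratios, benomyl over untreated, taking the channel the labels give first as the numerator. The base is not stated. On the PDR1 deletion arrays 2 raised to each value was a whole multiple of 1 small step for 97% to 100% of the values checked, against at most 40.4% with base e. On the WT and YAP1 deletion arrays base 2 gave 38.6% to 49.3%, close to the other bases, so base 2 was taken over for them from the deletion arrays and was not shown. The PDR1 deletion arrays held only 157 to 317 distinct values each, against 865 to 2018 on the WT and YAP1 deletion arrays. A difference between the PDR1 deletion and another strain cannot be told apart from this difference between their arrays. On the PDR1 deletion arrays a step near a ratio of 1 was worth 0.0054 to 0.0071 log2, below all differences named here. The 5 arrays of the strain measured 3450 to 5515 of the 6338 probes, fewest at 2 min. Their ratios also followed probe order, with a rank correlation of -0.36 at 20 min, and with that trend removed 156 genes passed at 10 and 20 min, 139 of the 162 given below among them. The PDR1 probe had a value on 1 of the 5 arrays of the deletion strain (0.39 at 4 min), and on all arrays of the YAP1 deletion and of WT. Many other probes lacked values on the same arrays, so this checks the deletion only weakly.

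The response of the PDR1 deletion grew with time and ran mostly upwards until 20 min. No feature was at least 2-fold higher with the drug at 30 s, and 1 was at 2 min (0.0291% of those measured). The number higher was 24 by 4 min (0.464%), 54 by 10 min (0.982%) and 70 on the 20 min array (1.35%). At least 2-fold lower were 0 features up to 4 min, 5 at 10 min (0.0909%) and 40 on the 20 min array (0.771%). Each count comes from 1 array and was not tested.

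**Figure D1:**
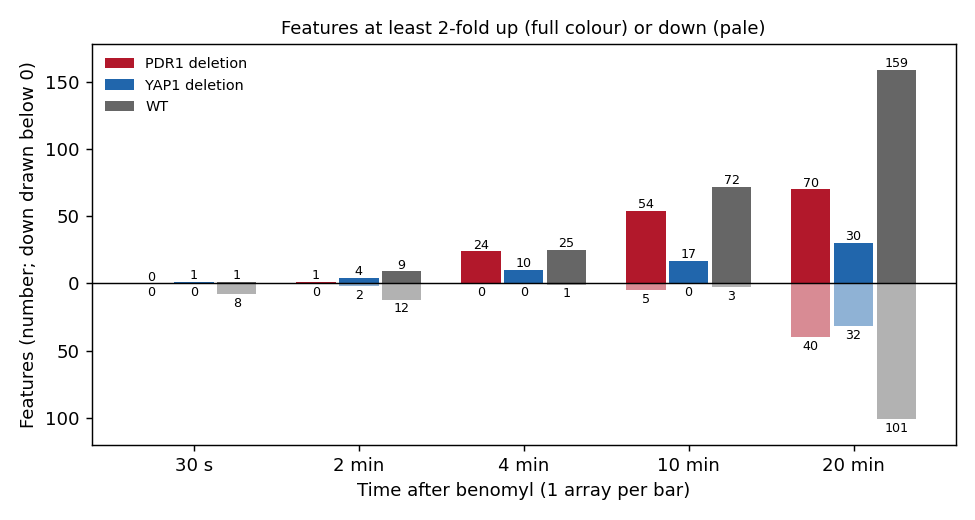
Number of features at least 2-fold up (full colour, above 0) or down (pale, below 0) on each array, by time after benomyl, for the PDR1 deletion, the YAP1 deletion and WT; each bar is 1 array, so there are no error bars. At 20 min the PDR1 deletion had 70 features up and 40 down, the YAP1 deletion 30 and 32, and WT 159 and 101.

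At 2 min the single feature past 2-fold was ATG41, a gene of autophagy, with log2 ratios of 1.69, 1.63, 0.80 and -0.40 on the 2, 4, 10 and 20 min arrays. It was highest on the earliest of these arrays, and it could not be tested, since it had no value on the WT arrays from 2 to 20 min. The YAP1 deletion had 0.92, 2.26, 2.17 and 2.14 at the same times. In the test of the mean of 2 and 4 min, 3 of 4377 genes (0.0685%) rose and 0 fell (limma, 462 at an unadjusted p under 0.05). They were SNG1, a membrane protein tied to nitrosoguanidine resistance, at 1.18 ± 0.14 (SE, n = 2 arrays; adjusted p = 0.0111), the protein sorting factor BTN2 at 0.96 ± 0.12 (adjusted p = 0.0111) and the NADPH oxidoreductase OYE2 at 0.96 ± 0.13 (adjusted p = 0.0166). BTN2 already stood at 0.66 on the 30 s array, against -0.03 for SNG1 and -0.34 for OYE2. None of the 3 passed without the time block. They were not the genes that rose most by 4 min. FLR1 and FRM2 had higher means of 2 and 4 min, as their values below show, and did not pass.

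Most calls named here come from the mean of 10 and 20 min. Of 4377 genes tested, 92 rose (2.1%) and 70 fell (1.6%), 162 in all (3.7%), and 56 of those that rose and 19 of those that fell did so at least 2-fold. The median of all genes tested was -0.02. The shares of 2.1% up and 1.6% down are the background for the list counts at 10 and 20 min given below. With the 4 arrays of the strain alone 161 genes passed, 136 of them shared. Without the strain's 20 min array 57 passed, 40 up and 17 down, and with arrays scaled to a common spread 82 rose and 34 fell. Of the 79 called genes that the rule for named genes chose, 31 passed under all alternatives tried: FLR1, FRM2, YML131W, SDL1, GRE2, YCR102C, YLR460C, AAD14, OSI1, ATR1, SNG1, OYE3, AAD6, GTT2, OYE2, ECM4, AAD4, BTN2, ISU1, TRX2, MUP1 and TRR1 among those up, and RNR3, FAS1, ERG11, RNR1, FBA1, UTR2, ERG1, NOP56 and HTA1 among those down. The other 48 lost their call under at least 1 alternative, 41 of them without the strain's 20 min array and 24 without its 10 min array.

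Over all 4 times the mean log2 ratio passed for 236 of 4525 genes (5.22%), 117 up (2.59%) and 119 down (2.63%), of which 27 and 2 were at least 2-fold. The shares of 2.59% up and 2.63% down are the background for the list counts over 2 to 20 min given below. The calls over 2 to 20 min and those at 10 and 20 min shared 127 genes, 53.8% of the longer list and 78.4% of the shorter, all in the same direction. Both use the 10 and 20 min arrays, so this overlap is no independent support. That longer list rests on the joint fit of the 3 strains: 37 genes passed with the strain's arrays alone, and 97, 107, 46 and 65 without its array at 2, 4, 10 or 20 min. A further 398 genes measured often enough in the deletion could not be fitted over the 4 times, because other strains lacked values. Among them the alcohol dehydrogenase-like gene YNL134C averaged 2.07, the NADPH alcohol dehydrogenase ADH6 1.43 and the maltose activator MAL33 1.10, the 3 that averaged at least 2-fold up.

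**Figure D2:**
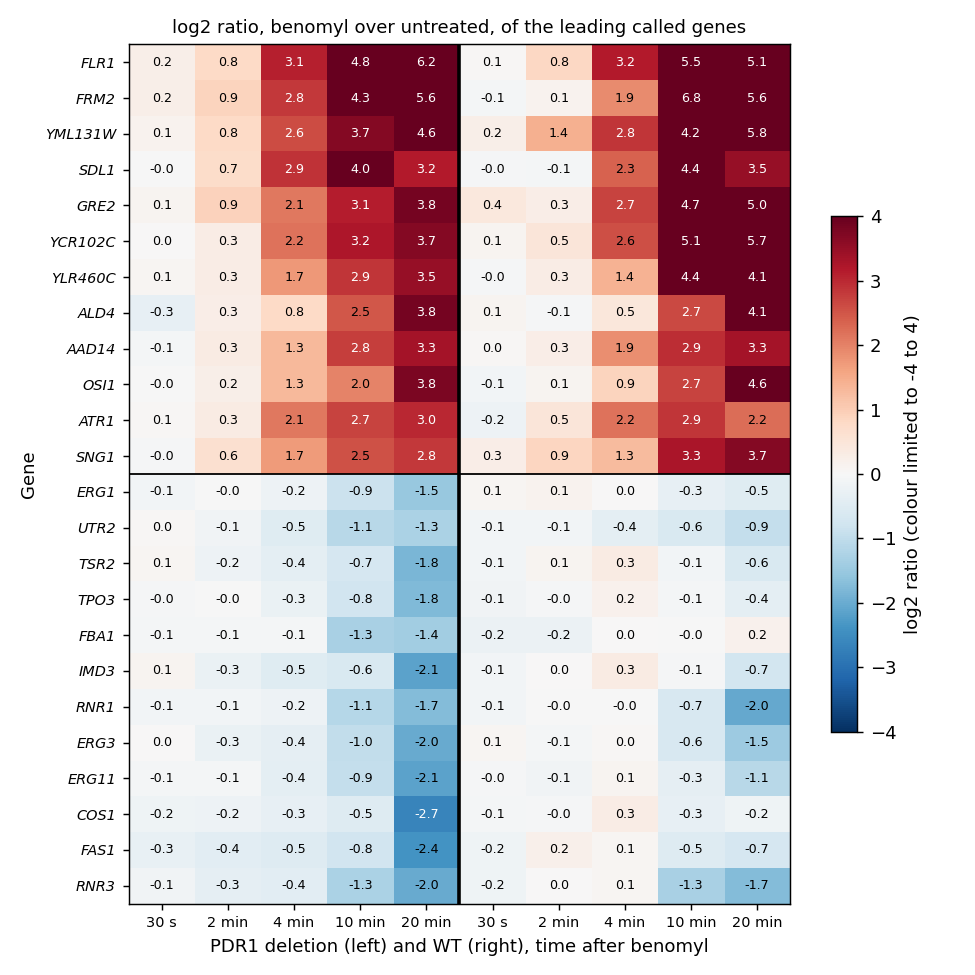
Log2 ratio on each array of the PDR1 deletion (left 5 columns) and WT (right 5 columns) for the 12 genes called up and the 12 called down with the most extreme mean at 10 and 20 min in the PDR1 deletion. Rows are ordered by that mean, from FLR1 at 5.46 to RNR3 at -1.65, and the numbers are the plotted values.

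The highest mean was that of an exporter. FLR1, a pump of the major facilitator family that carries benomyl resistance, had log2 ratios of 0.79, 3.10, 4.78 and 6.15 at 2, 4, 10 and 20 min in the PDR1 deletion, against 0.82, 3.19, 5.48 and 5.12 in WT. It climbed on every array in the deletion, while WT was highest at 10 min. Its mean at 10 and 20 min was 5.46 ± 0.35 in the deletion (SE, n = 2 arrays; adjusted p = 4.39e-06), a 44.02-fold rise, and its difference from WT was 0.16 ± 0.49 (adjusted p = 0.892). ATR1, the aminotriazole pump of the same family, had 0.33, 2.10, 2.71 and 3.01 in the deletion. It rose by 2.86 ± 0.24 at 10 and 20 min (adjusted p = 2.52e-05). SNQ2, an ABC transporter of the plasma membrane and a known target of Pdr1 as well as Yap1, had 0.14, 1.05, 1.46 and 2.13 in the deletion, against 0.38, 1.58, 2.48 and 1.74 in WT. It rose by 1.8 ± 0.26 without Pdr1 (adjusted p = 0.00175), and its call was lost without the strain's 20 min array (0.94, adjusted p = 0.216). AZR1, an azole and acetic acid pump, had 0.23, 1.0, 1.07 and 2.28 in the deletion and 0.25, 0.41, 0.74 and 0.45 in WT. It rose by 1.68 ± 0.22 (adjusted p = 0.000762; 0.95, adjusted p = 0.0982 without the 20 min array), and its difference from WT did not pass.

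In all, 6 of the 18 exporters tested rose at 10 and 20 min and 1 fell, with a list median of 0.30. Of all genes tested 2.1% rose and 1.6% fell. The vacuolar glutathione conjugate pump YCF1 (1.11 ± 0.19; 0.68, adjusted p = 0.442 without the 20 min array) rose too, and so did the weak acid pump PDR12 (1.01), which was named after its value was seen. TPO3, a polyamine exporter, fell by 1.27 ± 0.19 (adjusted p = 0.00205), with -0.02 at 2 min and -1.76 at 20 min. Without the 20 min array it did not pass (adjusted p = 0.28).

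PDR5 is the principal pump of the Pdr1 network. Its log2 ratios were 0.08, 0.17, 0.29 and 0.23 in the PDR1 deletion, against 0.21, 1.35, 1.53 and 1.15 in WT. The deletion was lower at every time, with the smallest gap at 2 min. At 10 and 20 min the difference was -1.08 ± 0.41 and did not pass (adjusted p = 0.232), nor did its mean of 0.26 in the deletion (adjusted p = 0.629; -0.37, adjusted p = 0.814 without the 20 min array). YOR1, the oligomycin pump, had -0.13, 0.88, 0.73 and 0.76 in the deletion. It rose by 0.56 ± 0.14 over 2 to 20 min (adjusted p = 0.0391), but not at 10 and 20 min (0.74, adjusted p = 0.0732). The call over 2 to 20 min was lost without the 10 min array (0.69, adjusted p = 0.0759) or the 20 min array (0.33, adjusted p = 0.194).

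Of the 14 targets of Pdr1 and Pdr3 tested, 4 rose at 10 and 20 min and 0 fell, with a median of 0.21. They were GRE2, CIS1, SNQ2 and the sphingolipid transferase IPT1 (0.70 ± 0.12, adjusted p = 0.00551); GRE2 and SNQ2 also stand on the Yap1 list. CIS1 had 0.87, 1.47, 1.79 and 2.27 in the deletion, against 3.84 at 10 min and 2.68 at 20 min in WT. Without the 20 min array neither CIS1 (1.58, adjusted p = 0.263) nor IPT1 (0.48, adjusted p = 0.341) nor SNQ2 passed. None of the 14 differed from WT past the threshold, where the median difference was -0.43. Over all genes tested the median difference was 0.02. Other lists lay on both sides, with -0.43 for the hexose and glycolysis genes, -0.35 for the Yap1 targets and 0.21 for ribosome biogenesis. PDR3 had a value on 2 of the 4 arrays only (0.55 at 2 min, 0.08 at 4 min) and could not be tested. YRR1, a zinc cluster regulator of SNQ2 and other drug genes, rose by 1.28 ± 0.17 (adjusted p = 0.000879; 0.75, adjusted p = 0.112 without the 20 min array), the only one of 19 regulators of drug and stress genes that passed upwards; YAP1 itself stood at -0.08 (adjusted p = 0.743).

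Most targets of Yap1 rose. At 10 and 20 min 25 of 31 tested rose and 0 fell, with a median of 2.15; over 2 to 20 min it was 24 of 31, with a median of 1.31. Their median was 0.21, 0.91, 1.76 and 2.54 at 2, 4, 10 and 20 min in the PDR1 deletion. At the same times it was -0.01, -0.01, 0.02 and 0.10 in the YAP1 deletion, and 0.14, 0.44, 1.88 and 1.89 in WT. These medians run over the 32 to 35 members with a value on each array. Against WT, 1 member was called higher in the PDR1 deletion (OYE3), 1 lower (ECM4) and 29 were not called. The median difference from WT at 10 and 20 min was -0.35, and it was positive for 4 of the 31 tested.

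After FLR1 came FRM2 and YML131W. FRM2, a nitroreductase-like protein, had 0.89, 2.84, 4.33 and 5.61 in the PDR1 deletion and rose by 4.97 ± 0.37 at 10 and 20 min (adjusted p = 1.21e-05). YML131W, a reductase of the medium chain family, had 0.81, 2.61, 3.67 and 4.61 and rose by 4.14 ± 0.29 (adjusted p = 8.32e-06). GRE2, the methylglyoxal reductase, had 0.92, 2.10, 3.14 and 3.82 in the deletion, against 0.26, 2.70, 4.75 and 5.0 in WT. All 3 genes were higher on each later array of the deletion. GRE2 rose by 3.48 ± 0.28 in the deletion (adjusted p = 2.24e-05). The quinone oxidoreductase relatives YCR102C (3.46) and YLR460C (3.17) followed, with OSI1 (2.87) and SNG1 (2.68). SDL1, a serine dehydratase gene that RefSeq lists as a pseudogene, had 0.74, 2.88, 3.99 and 3.19 and was highest at 10 min; it rose by 3.59 ± 0.29.

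The old yellow enzymes, NADPH dehydrogenases that reduce double bonds of drugs and oxidised lipids, both rose. OYE2 had 0.63, 1.28, 2.18 and 2.49 in the deletion and rose by 2.33 ± 0.13 (adjusted p = 2.65e-06). OYE3 had 0.46, 0.91, 1.96 and 3.19 in the PDR1 deletion, against 0.12, 0.21, 1.15 and 1.54 in WT. It was higher in the deletion at all 4 times and, at 10 and 20 min, higher by 1.22 ± 0.22 (adjusted p = 0.039); the call was lost with scaled arrays (1.09, adjusted p = 0.0731), with the PDR1 deletion and WT fitted without the YAP1 deletion (adjusted p = 0.0558) and without the deletion's 20 min array (0.78, adjusted p = 0.42). Of the 5 aryl-alcohol dehydrogenases tested, enzymes that reduce aromatic aldehydes, 4 rose: AAD14 (3.06 ± 0.18), AAD6 (2.54 ± 0.22), AAD4 (2.13 ± 0.15) and AAD3 (1.13 ± 0.14; 0.92, adjusted p = 0.112 without the 20 min array). These genes are close copies, and the signal of a probe may hold that of another copy.

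The pattern of FLR1 over the 4 arrays was most like that of FRM2, at a root mean square distance of 0.38 log2, before YML131W (0.98), GRE2 (1.51), SDL1 (1.54) and YCR102C (1.55). Distance here counts size as well as shape, so it ranks the highest genes first.

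The glutathione and thioredoxin systems, which reduce peroxides and conjugate drugs, gave 6 of 21 tested members up at 10 and 20 min and 0 down, with a median of 0.09. The glutathione transferase GTT2 had 0.16, 1.42, 1.95 and 2.87 in the deletion and rose by 2.41 ± 0.20 (adjusted p = 2.52e-05). GSH1, which starts glutathione synthesis, rose by 1.03 ± 0.16, the thioredoxin TRX2 by 1.17 ± 0.12, the thioredoxin reductase TRR1 by 0.96 ± 0.11 and the peroxidase GPX2 by 0.77 ± 0.12. GSH1 did not pass without the 20 min array (0.96) or the 10 min array (1.1), nor GPX2 without the 10 min array (0.55). TRX2 came late, with 0.10, 0.10, 0.71 and 1.63 on the 4 arrays. ECM4, an omega class glutathione transferase, rose less than in WT: it had 0.13, 0.81, 1.76 and 2.54 in the PDR1 deletion, against 0.30, 0.66, 4.04 and 5.04 in WT. The strains lay close at 2 and 4 min and apart later, with a difference of -2.39 ± 0.25 (adjusted p = 0.00226; -2.60, adjusted p = 0.0754 without the deletion's 20 min array).

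**Figure D3:**
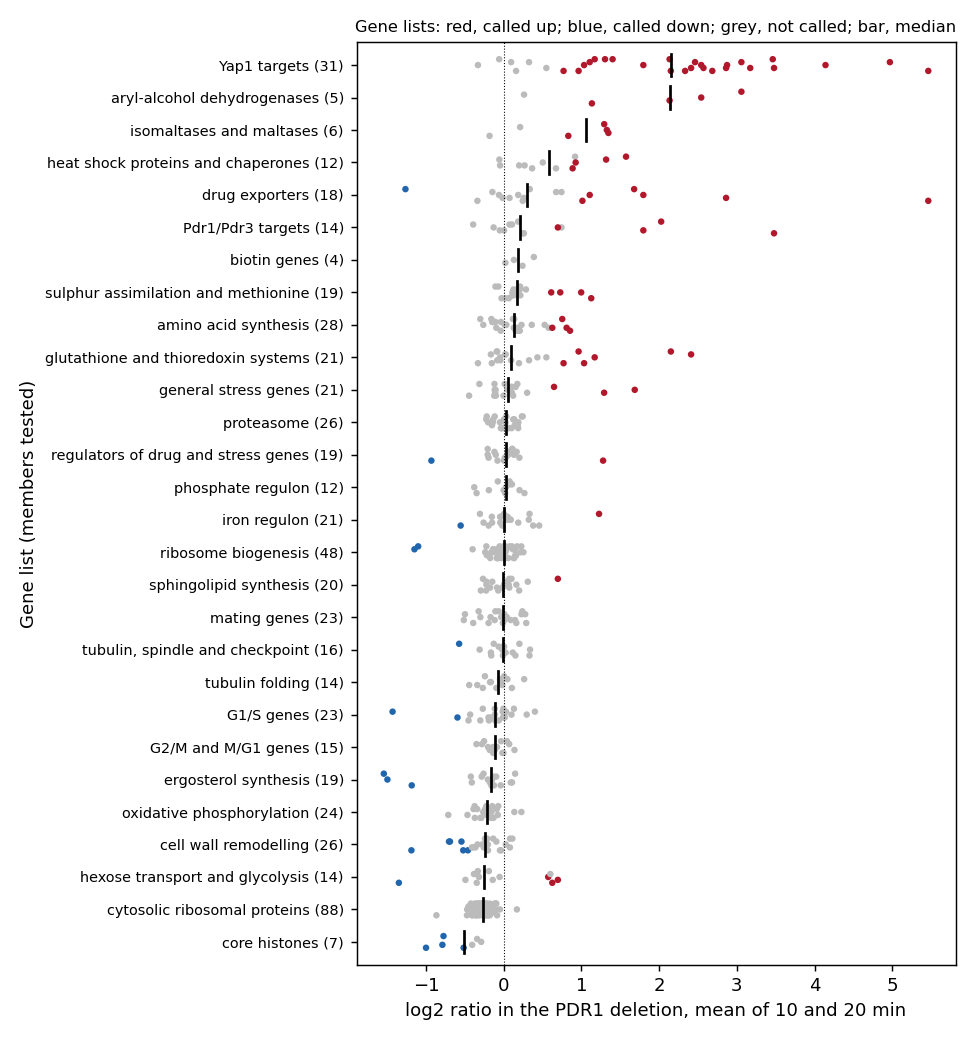
Mean log2 ratio at 10 and 20 min in the PDR1 deletion for each tested member of the 28 gene lists, with red for called up, blue for called down, grey for not called, and a black bar at the list's median; a gene can stand on several lists. The Yap1 targets reach furthest right (median 2.15), while the Pdr1/Pdr3 targets have a median of 0.21 and the core histones one of -0.52.

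Heat shock proteins and chaperones were poorly covered, with 12 of 29 tested at 10 and 20 min, of which 4 rose and 0 fell (median 0.59). BTN2 had 0.74, 1.19, 1.55 and 1.60 in the PDR1 deletion, against 0.28, 0.85, 4.54 and 4.17 in WT. It was higher in the deletion at 2 and 4 min and far lower afterwards. It rose by 1.57 ± 0.12 without Pdr1 (adjusted p = 1.3e-05), and its difference from WT at 10 and 20 min was -2.78 ± 0.17 (adjusted p = 1.46e-05), called under all settings tried. The HSP90 co-chaperone STI1 (0.89 ± 0.13) and the HSP70 co-chaperone SIS1 (0.92 ± 0.15) rose as well. Without the 20 min array STI1 (0.70) and SIS1 (1.10) did not pass, and SIS1 did not pass without the 10 min array (0.75) either. The small heat shock protein HSP42 was called at 1.32, but it had no 20 min value in the deletion and 0.49 at 10 min; the fit filled in the rest from the other strains, and with the strain's arrays alone it did not pass (0.49, adjusted p = 0.173). HSP104, the disaggregase, stood at 0.30, 0.38, 0.27 and 0.46 in the deletion, against -0.30, -0.03 and 2.30 at 2, 4 and 10 min in WT, which lacked a 20 min value. Its difference was -2.24 ± 0.26 (adjusted p = 0.00435).

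Of the general stress genes, those driven by Msn2 and Msn4, 3 of 21 rose (median 0.05), where 2.1% of all genes tested rose. SPI1, a cell wall protein, stood at -0.03, -0.20, 0.26 and 3.11 in the deletion. Only the 20 min array was high, and without it the call was lost (0.98, adjusted p = 0.181). RTN2, a reticulon of the endoplasmic reticulum, rose by 1.29 ± 0.22 and the glycerol phosphate dehydrogenase GPD1 by 0.65 ± 0.16. RTN2 was not called without the 20 min array (1.03) or the 10 min array (1.55). Nor was GPD1, at 0.88 without the 20 min array and 0.41 without the 10 min array. TSL1, a subunit of trehalose synthase, stood at -0.03, -0.26, -0.15 and -0.48 in the PDR1 deletion, against 0.38 at 2 min, -0.09 at 4 min and 2.44 at 20 min in WT. That single later WT value sets the difference of -2.69 ± 0.28 (adjusted p = 0.00226; -1.71, adjusted p = 0.0961 with scaled arrays).

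ALD4, the mitochondrial aldehyde dehydrogenase, had 0.27, 0.79, 2.47 and 3.82 in the deletion and a rise of 3.14 ± 0.36 at 10 and 20 min (adjusted p = 0.000255; 2.48, adjusted p = 0.112 without the 20 min array). Of 19 genes of sulphur assimilation and methionine, 4 rose and 0 fell (median 0.16): the methionine permease MUP1 (1.13 ± 0.10), the sulphide-fixing enzyme MET17 (1.0 ± 0.17), the S-methylmethionine permease MMP1 (0.73 ± 0.11) and the cystathionine lyase CYS3 (0.61 ± 0.10). Without the 20 min array MET17 (0.64) and CYS3 (0.55) lost their calls. Without the 10 min array CYS3 (0.67) and MMP1 (0.57) lost theirs. Of 28 amino acid genes, 4 rose and 0 fell (median 0.13), all in the lysine and branched-chain pathways: LYS20 (0.85), LYS21 (0.81), LEU4 (0.75) and ILV2 (0.62). LYS20 (0.87), LYS21 (0.76) and ILV2 (0.76) were not called without the 20 min array. LYS20 (0.83) and ILV2 (0.49) were not called without the 10 min array either. GCN4, the activator of amino acid synthesis, went the other way, with -0.23, -0.36, -0.34 and -1.52. It fell by 0.93 ± 0.18 (adjusted p = 0.0134), and without the 20 min array its value was -0.31 (adjusted p = 0.553).

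Among 6 isomaltases and maltases, enzymes that split disaccharides, 4 rose (median 1.06): IMA3 (1.35 ± 0.17), IMA4 (1.33 ± 0.22), MAL32 (1.29 ± 0.22) and IMA2 (0.83 ± 0.19). Without the 10 min array IMA2 (0.26), IMA4 (1.45) and MAL32 (0.86) were not called. IMA3 (0.97), IMA4 (1.20) and MAL32 (1.72) were not called without the 20 min array. The isomaltases are near-identical copies and their probes may share signal. The hexose transporters HXT5 (0.70), HXT2 (0.62) and HXT6 (0.57) rose at 10 and 20 min. HXT7, nearly the same gene as HXT6, stood at 0.60 and did not pass there (adjusted p = 0.0669). Over 2 to 20 min HXT7 was called up and HXT5 was not. Of the 14 hexose and glycolysis genes tested only 4 had a positive mean at 10 and 20 min, and over 2 to 20 min 3 rose and 3 fell. Without the 20 min array HXT5 (0.52), HXT2 (0.40) and HXT6 (0.30) were not called. HXT2 (0.85) and HXT6 (0.84) were not called without the 10 min array either. ISU1, the scaffold on which mitochondria build iron-sulphur clusters, had 0.09, 0.26, 1.13 and 1.32 in the PDR1 deletion, against 0.15, 0.15, -0.03 and 0.56 in WT. It rose by 1.23 ± 0.11 in the deletion (adjusted p = 3.84e-05) and exceeded WT by 0.96 ± 0.16 (adjusted p = 0.0245). That difference was lost with scaled arrays (0.89, adjusted p = 0.158). Its sister ISU2 was highest early, with 0.86, 0.75, 0.64 and 0.28, and rose by 0.63 ± 0.10 over 2 to 20 min. ISU2 was not called without the 10 min array (0.52, adjusted p = 0.0629).

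The lowest mean was that of RNR3. RNR3 and RNR1 encode large subunits of ribonucleotide reductase, which makes deoxynucleotides. RNR3 had -0.35, -0.41, -1.27 and -2.02 in the PDR1 deletion, against 0.02, 0.07, -1.29 and -1.73 in WT. It fell by 1.65 ± 0.11 at 10 and 20 min (adjusted p = 4.39e-06). RNR1 had -0.10, -0.21, -1.14 and -1.72 in the deletion and fell by 1.43 ± 0.13 (adjusted p = 4.72e-05). Both were lower at 20 min than at 10 min. IMD3, a dehydrogenase of guanine nucleotide synthesis, fell by 1.37 ± 0.17, with -0.60 at 10 min and -2.14 at 20 min; without the 20 min array its value was -0.89 (adjusted p = 0.113).

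Of 19 ergosterol genes, 3 fell and 0 rose (median -0.16): ERG11, the target of azole drugs, ERG3, the sterol C-5 desaturase, and ERG1, squalene epoxidase. ERG11 had -0.07, -0.41, -0.95 and -2.14 in the PDR1 deletion, against -0.15, 0.11, -0.35 and -1.12 in WT. It fell by 1.54 ± 0.15 (adjusted p = 6.02e-05) and ERG1 by 1.18 ± 0.12. ERG3 fell by 1.5 ± 0.17, a call lost without the 20 min array (-1.21, adjusted p = 0.102). FAS1, the beta subunit of fatty acid synthase, had -0.41, -0.52, -0.76 and -2.40 in the deletion and fell by 1.58 ± 0.19 (adjusted p = 0.000408; -0.93, adjusted p = 0.0296 without the 20 min array). COS1, a gene of the subtelomeric COS family whose copies are alike, stood at -0.20, -0.31, -0.51 and -2.65; its call rests on the 20 min array, without which the value was -0.45 (adjusted p = 0.404).

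FBA1, the aldolase of glycolysis, separated the strains. It had -0.06, -0.08, -1.30 and -1.40 in the PDR1 deletion, against -0.22, 0.01, -0.01 and 0.18 in WT. The strains lay close at 2 and 4 min and were apart at 10 and 20 min. It fell by 1.35 ± 0.12 in the deletion (adjusted p = 2.86e-05), and its difference from WT was -1.43 ± 0.16 (adjusted p = 0.00226; -1.26, adjusted p = 0.131 without the deletion's 20 min array). It was the only one of 14 hexose and glycolysis genes tested that fell at 10 and 20 min, where the list median was -0.26.

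Of 48 ribosome biogenesis genes, 2 fell and 0 rose, where 1.6% of all genes tested fell, with a list median of 0.00: NOP56, a core protein of box C/D small nucleolar particles, with -0.55, -0.48, -0.93 and -1.37, and NOG1, a GTPase of the large subunit pathway, with -0.71, -0.26, -1.06 and -1.14. NOP56 fell by 1.15 ± 0.10 (adjusted p = 3.92e-05) and NOG1 by 1.10 ± 0.14 (-0.92, adjusted p = 0.0679 without the 10 min array). TSR2, which acts in ribosomal RNA processing, fell by 1.25 ± 0.15, with -0.67 at 10 min and -1.84 at 20 min; without the 20 min array it did not pass (-0.97, adjusted p = 0.0982). Of the cytosolic ribosomal proteins, 0 of 88 passed at 10 and 20 min, with a median of -0.27 against -0.02 for all genes. Over 2 to 20 min 7 of 92 fell and 0 rose (median -0.21), where 2.63% of all genes tested fell. RPS10A was lowest at -0.60 ± 0.08, with the others down to -0.41. Without the 20 min array RPL11A, RPL15A, RPL16A, RPL31B and RPL37A lost this call (limma, adjusted p from 0.116 to 0.191). RPS10A lost it without the 10 min array (limma, adjusted p = 0.07), as did RPL11A, RPL15A, RPL16A and RPL31B (adjusted p from 0.108 to 0.188). Only 1 of the 92 had a positive mean.

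Of the 7 core histones tested, 4 fell and 0 rose, with a median of -0.52: HTA1 (-1.0 ± 0.11), HHF1 (-0.79 ± 0.13), HHT1 (-0.78 ± 0.13) and HHT2 (-0.52 ± 0.10). HHF1 lost its call without the 10 min array (-0.55, adjusted p = 0.192), HHT1 and HHT2 without either of the 10 and 20 min arrays. HTA1 had -0.06, -0.29, -0.86 and -1.14 in the deletion, and -0.34 and -0.79 at 10 and 20 min in WT. All 7 means were negative. Of 23 genes expressed at the G1/S transition, 2 fell, where 1.6% of all genes tested fell. They were RNR1 and the G1 cyclin CLN2 (-0.60 ± 0.11), which had no 2 min value. CLN2 was not called without the 10 min array (-0.68) or the 20 min array (-0.51). Of 26 cell wall genes, 6 fell and 0 rose (median -0.24). UTR2, a chitin transglycosylase, fell most, with -0.15, -0.48, -1.11 and -1.26 and a mean of -1.19 ± 0.12 (adjusted p = 6.76e-05). The glucanosyltransferase GAS1 (-0.70) and the glucanase-like SCW10 (-0.69) followed. Both lost their calls without the 20 min array (-0.44 for GAS1 and -0.41 for SCW10), and GAS1 also without the 10 min array (-0.97). PIM1, the mitochondrial Lon protease, had -0.75, -0.72 and -0.76 at 2, 4 and 10 min and no 20 min value. The fit put its mean over the 4 times at -0.83 ± 0.16 (adjusted p = 0.0161). Without the 10 min array PIM1 did not pass (-0.78, adjusted p = 0.134).

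No tubulin gene was called. TUB1 stood at -0.16, TUB2 at -0.17 and TUB3 at -0.31 at 10 and 20 min in the deletion, with adjusted p from 0.15 to 0.515. Of 16 tubulin, spindle and checkpoint genes 1 fell at those times, the checkpoint protein BUB3 (-0.57 ± 0.12). Over 2 to 20 min its partner kinase BUB1 rose (0.41 ± 0.10). Neither was called without the 10 or the 20 min array, and both lacked a 2 min value. None of the 26 proteasome, 24 oxidative phosphorylation, 15 G2/M and M/G1 and 14 tubulin folding genes tested passed at 10 and 20 min. Nor did any of the 23 mating, 12 phosphate and 4 biotin genes. In the iron regulon 1 of 21 rose (ISU1) and 1 fell (FET3, -0.56, not called without the 10 or the 20 min array). In sphingolipid synthesis 1 of 20 rose (IPT1). Of all genes tested 2.1% rose and 1.6% fell, so such counts in lists of this size lie near those shares.

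The change between the early and the late arrays was also tested. The difference between the mean of 10 and 20 min and that of 2 and 4 min passed for 36 of 4377 genes (0.822%), 28 of them up (0.64%) and 8 down (0.183%). It was 3.52 ± 0.49 for FLR1 (adjusted p = 0.00795), 2.61 ± 0.51 for ALD4 (adjusted p = 0.04) and -1.27 ± 0.15 for RNR3 (adjusted p = 0.00398). This count was 0 without all the 2 min arrays, without all the 20 min arrays, or without the deletion's own array at either time, and 9 without the time block.

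Between the PDR1 deletion and WT, measured directly, 18 of 4377 genes (0.411%) differed at 10 and 20 min, 8 higher in the deletion (0.183%) and 10 lower (0.228%). Over 2 to 20 min 0 of 4525 passed (limma, 658 at an unadjusted p under 0.05), and 32 passed without the time block. In simulated data this test recovered 0% to 0.5% of genes whose difference grew with time in the deletion. The count of 0 therefore cannot show that the strains were alike. Of the 18, both strains had both values at 10 and 20 min for 8. With genes measured on all 12 arrays of the fit 5 passed, with scaled arrays 4 (BTN2, ECM4, FBA1 and HSP104), and without the deletion's 20 min array 2 (BTN2 and HSP104). The WT array at 20 min had the widest spread of the 12 (SD 0.54), and without it 5 passed; 53 passed without the WT array at 10 min, and 47 without the deletion's array at 10 min.

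**Figure D4:**
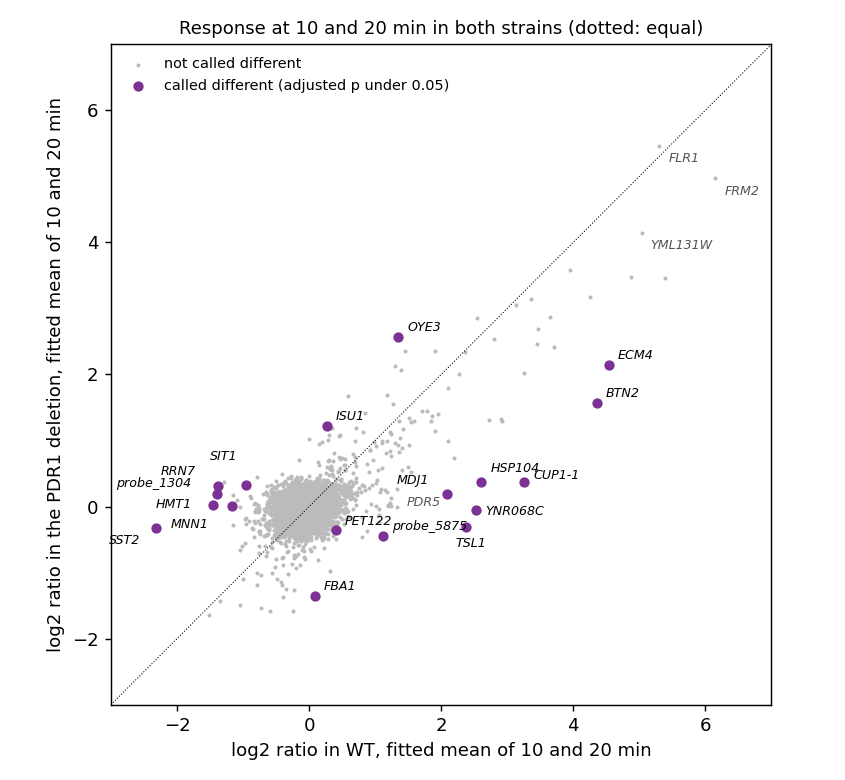
Fitted mean log2 ratio at 10 and 20 min in the PDR1 deletion (vertical) against WT (horizontal), with 1 point per gene tested and purple for the 18 called different; the dotted line marks equal values. FLR1 lies near the line, BTN2 and ECM4 lie below it and OYE3 above it.

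For 10 of the 18, WT lacked 1 of its values at 10 and 20 min or both. CUP1-1, a copper metallothionein, had 0.14 and 0.59 at 10 and 20 min in the PDR1 deletion, against 3.73 at 20 min in WT (difference -2.89 ± 0.29, adjusted p = 0.00226). YNR068C had -0.04 and -0.06 in the deletion, against 2.65 at 20 min in WT. SST2, which turns off pheromone signalling, had -0.36 and -0.29 in the deletion, against -2.48 at 20 min in WT, so that the deletion was higher by 1.99 ± 0.26 (adjusted p = 0.0132). HMT1, a protein arginine methyltransferase, RRN7, an RNA polymerase I factor, and the unnamed probe_1304 were likewise near 0 in the deletion and at -1.48, -1.35 and -1.28 at 20 min in WT. The siderophore transporter SIT1 had values at both times: 0.48 and 0.16 in the deletion, against -0.89 and -1.02 in WT (1.28 ± 0.19, adjusted p = 0.0233).

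The genes called up at least 2-fold at 10 and 20 min can be set beside the other strains. Of the 56, the mean of both times was at least 2-fold in all 55 with both values in the PDR1 deletion, in 3 of 56 in the YAP1 deletion and in 41 of 52 in WT. Their medians were 1.57 in the PDR1 deletion, 0.11 in the YAP1 deletion and 1.86 in WT. For the 19 called down at least 2-fold, the medians were -1.25 in the PDR1 deletion, -0.25 in the YAP1 deletion and -0.56 in WT. The genes were chosen on the PDR1 deletion's values, so these figures describe them and carry no test.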

How the data were processed

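The deposited table gives 1 log2 ratio per probe and array; array means within 0.0012 of 0 show that the authors centred each array. Background correction, normalisation, filters, dyes and the sampling times of the untreated cells are not given in the sources used here. A constant dye bias was not tested. The genes called up at 10 and 20 min had a median of 0.02 on the strain's 30 s array and 1.32 at 20 min. For those called down the medians were -0.07 and -1.02. Of 6338 probes 5628 carried a gene symbol; probes of 17 genes were averaged, and symbols were checked against RefSeq, where 5 were not found and none changed. The number of arrays limits the precision.

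limma 3.58.1 in R 4.3.3 (lmFit, eBayes, two-sided) fitted the 12 arrays of the 3 strains from 2 to 20 min: strain plus time as a block for the response over 2 to 20 min, strain by phase plus time within phase for the rest. Residual degrees of freedom were 6 and 4, to which shrinkage added 6.21 and 7.1. SE and p use the spread of all 12 arrays, so they are too small where late arrays vary more. Where the strains differ in time course, that difference enters the spread and widens them. Where a strain lacked a value, the fit filled in the time pattern of the others. Genes passed at a Benjamini-Hochberg adjusted p under 0.05 over all genes tested. The script was tested on simulated data. Alternatives were the strain's arrays alone, no time block, use of the 30 s arrays, other scalings and filters, removal of the trend along probe numbers, robust shrinkage, and each array or time left out. The named genes and lists were chosen with earlier results of these data known: the 12 most extreme called each way, up to 6 called members per list, the extremes of each array, and set drug, tubulin and stress genes.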

Additional observations from a re-analysis of the deposited data

Results flagged for a closer look

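Of the 118 named genes with values on all 4 arrays of the PDR1 deletion, 7 had 1 array far from the other 3; chance flags about 1 in 20 such groups. At 20 min SPI1 stood high at 3.108, and ATP2 (-1.291), COS1 (-2.654) and GCN4 (-1.522) stood low. At 2 min INP53 (-0.972), MAL32 (-0.121) and YOR1 (-0.128) stood below the later arrays.

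For 14 named genes the response at 10 and 20 min differed between the PDR1 deletion and WT in limma's test of the difference. Those lower in the deletion were CUP1-1 (-2.89), BTN2 (-2.78), TSL1 (-2.69), YNR068C (-2.58), ECM4 (-2.39), HSP104 (-2.24) and FBA1 (-1.43). Those higher in the deletion were SST2 (1.99), RRN7 (1.70), the unnamed probe_1304 (1.58), HMT1 (1.48), SIT1 (1.28), OYE3 (1.22) and ISU1 (0.96). BTN2 and HSP104 were called under all settings in which they could be tested, and the other 12 were lost under at least 1. HSP104 had no 20 min value in WT, so it could not be tested without the WT array at 10 min.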

How the results depend on the processing

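No named call changed sign; among values not called, PDR5 stood at -0.37 in place of 0.26 and YAP1 at 0.18 in place of -0.08 at 10 and 20 min without the PDR1 deletion's 20 min array. In all, 31 of 79 named genes called at 10 and 20 min, 7 of 87 called over 2 to 20 min and 2 of 14 called different from WT passed under all settings in which they could be tested. Counts are given here in the order over 2 to 20 min (236), at 10 and 20 min (162), at 2 and 4 min (3), change between phases (36), and difference from WT over 2 to 20 min (0) and at 10 and 20 min (18); those not named stayed within 1.5 times. With the strain's arrays alone (differences: with WT) the first was 37 and the last 10. The times pair the arrays of the strains; without this time block the third was 0, the fourth 9 and the fifth 32. With the own 30 s array subtracted, whose noise all later arrays then share so that p is too small, they were 866, 610 and 10, and the differences 391 and 247. Scaled arrays gave 157, 0 for the third, 13 for the fourth and 4 for the last. Removing the probe trend gave 6 for the third and 1 for the fifth. Genes with all 12 values gave 5 for the last. Without the arrays of all strains at 2 min the third was 11, the fourth 0 and the last 11; at 4 min the first was 71 and the third 0; at 10 min the first was 38, the third 0 and the last 40; at 20 min they were 59, 66, 0, 0 and, for the last, 3. Leaving out 1 array at a time gave ranges of 46 to 227, 57 to 197, 1 to 28, 0 to 51, 0 to 0 and 2 to 53; without the YAP1 deletion's 4 min array the first was 149. Features at least 2-fold changed numbered 65 (48 up, 17 down) in place of 110 at 20 min with scaled arrays, which shrank that array by 0.73, and 3 in place of 1 at 2 min with the 30 s array subtracted. Apart from fewer arrays or genes tested, the causes were not tested.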
